A study of Mus musculus with 14 samples.

Results

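The 9 genes described here, Thsd4, Adamts3, Pkp2, Slc24a4, Ankrd52, Rsrp1, Map2k6, Spata2l and Usp53, were those with the largest called rises in the medial prefrontal cortex (mPFC) of resilient mice relative to naive mice, leaving out Lcn2. They were 9 of the 14451 genes tested. They were thus chosen by the size of the difference between resilient and naive mice among the genes called there, and in that comparison their values are a description with no test. Each gene was found through probes whose RefSeq accession belongs to it, and each had 1 probe.

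RNA was measured on 1-colour Agilent arrays, 1 mouse per array, in wild-type C57BL/6 mice that went through repeated social defeat stress (R-SDS), in which a mouse is repeatedly attacked by an aggressor, or through cage transfer. The groups were 3 resilient mice (R-SDS), 6 susceptible mice (R-SDS) and 5 naive mice (cage transfer). Resilient and susceptible are the behavioural phenotypes named in the labels. Age, sex and the behavioural test are not given in the sources used here. All mice were killed 4 h after the last session and perfused, and the mPFC was taken as a 1.5 mm punch that holds every cell type of the region. Fewer cells of a type and less RNA per cell cannot be told apart in such tissue.

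The mPFC is a cortical region that restrains emotional responses to stress and in which repeated stress is known to change gene expression in neurons, glia and vessels. Social stress releases glucocorticoid hormone, whose receptor is a transcription factor that acts in nearly all brain cells. The 9 genes come from different pathways. Thsd4 and Adamts3 encode secreted proteins of the extracellular matrix, Pkp2 and Usp53 encode proteins found at cell junctions, Slc24a4 is a calcium transporter, Map2k6 is a kinase of the p38 stress pathway, Ankrd52 is a phosphatase subunit, and Rsrp1 and Spata2l have relatives that act in RNA splicing and ubiquitin signalling.

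Levels below are log2 processed signals minus the 75th percentile of the same array, and a gene was called at an adjusted p under 0.05 in limma over all 14451 genes. A level has no meaning against the level of another probe, so only differences between mice are compared. All 9 genes were higher in every resilient mouse than in every naive mouse, as were 8.32% of all genes tested. All 9 passed the threshold in that comparison, where 0.0900% of genes were called higher and 0.0623% lower, a count that the choice of genes fixes. An unadjusted p under 0.05 was found there for 20.3% of all genes. The probe filter adds to this for Thsd4, Adamts3 and Usp53, whose naive spots were not all well above background and which passed only through groups where they were high. The log2 differences, resilient minus naive, ranged between 0.81 and 1.84, with a median of 0.96, against a median of 0.02 over all genes.

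The order of called rises shows where the set ends. Lcn2, a secreted protein that binds bacterial iron carriers and is not among the 9, stood first with a log2 difference of 2.84. Usp53 was the smallest member at 0.81. Ubp1 (0.80), Ippk (0.76) and Ralgps2 (0.73) followed as the remaining called rises. A further 156 genes differed by at least as much as Usp53 without passing the threshold, and Nol9 (0.92, adjusted p = 0.0655) was among the genes with adjusted p just above it.

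**Figure D1:**
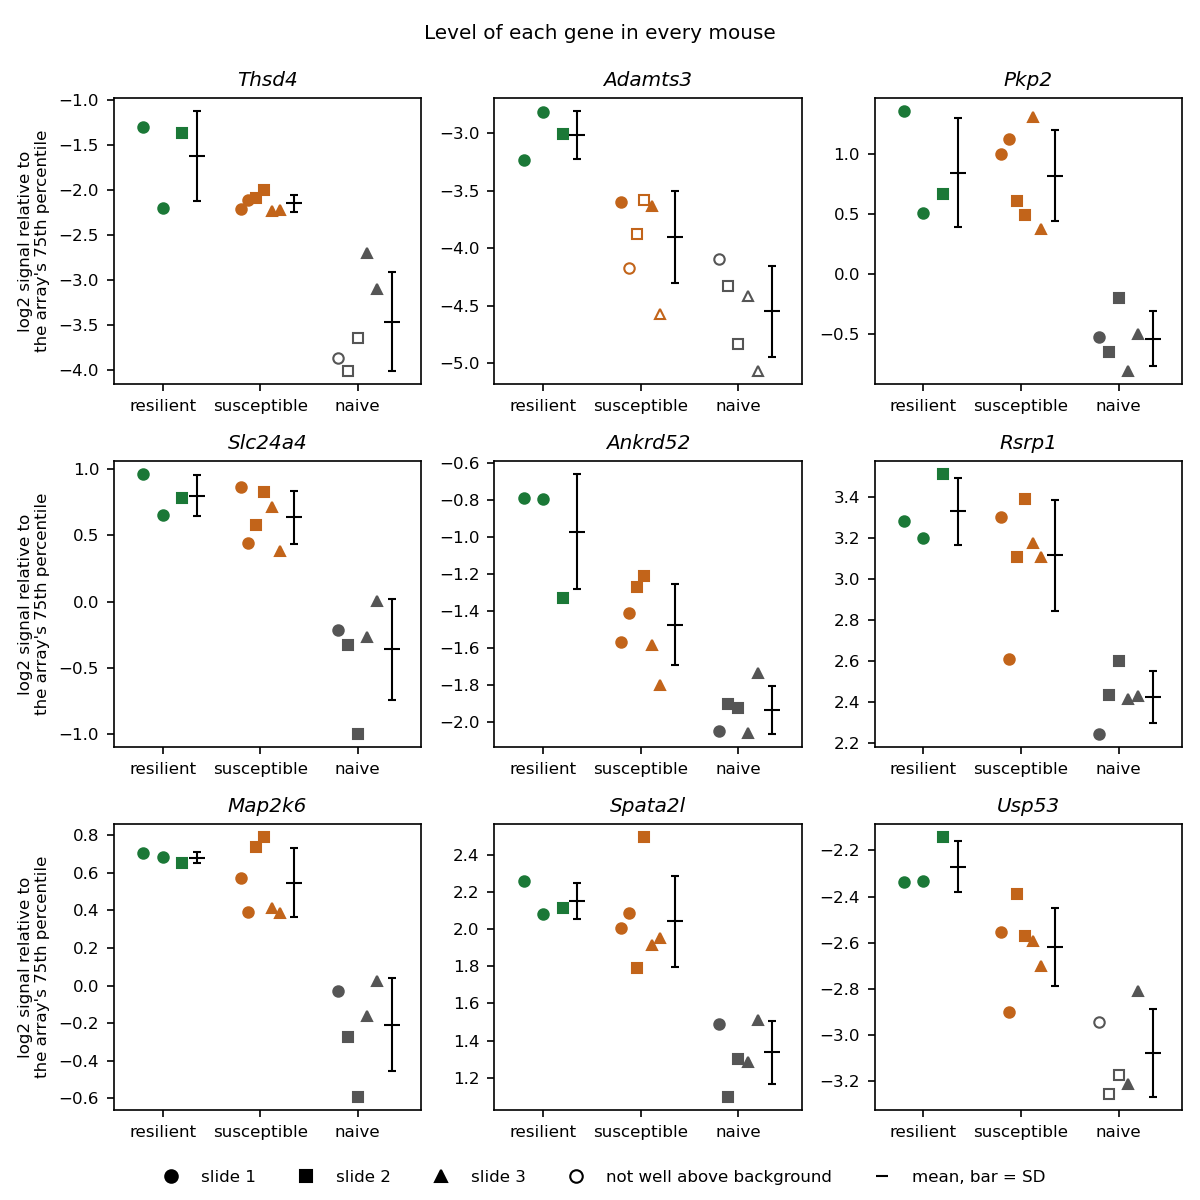
Level of each of the 9 genes in every mouse, as log2 signal relative to the array's 75th percentile on the vertical axis, for resilient, susceptible and naive mice on the horizontal axis. Symbols give the slide, open symbols are spots not well above background, and bars are mean and SD (n = 3, 6 and 5 mice). Every resilient mouse lies above every naive mouse, and the susceptible mice lie above all naive mice for Thsd4, Pkp2, Slc24a4, Rsrp1, Map2k6 and Spata2l.

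The DNA around the start sites of these genes is shown because the genes moved together across the groups. RefSeq promoter windows (GRCm38.p6, 250 bases before to 50 bases after a start) were listed for 6 of the 9 genes, in 9 windows. Each was searched on both strands for the palindromic glucocorticoid response element, the shorter glucocorticoid receptor site AGAACA, the cAMP response element (TGACGTCA), the AP-1 site (TGANTCA), the E-box (CACGTG) and the GC box (GGGCGG). Among 32851 windows of the same length, these letters occurred in 0.475%, 19.0%, 1.79%, 7.81%, 7.15% and 35.7%. Map2k6 and Slc24a4 are printed because they varied most alike among the 9 genes, and Thsd4 and Adamts3 because they had the largest differences. Capitals mark matches.
Map2k6, chr11:110398852-110399151, plus strand: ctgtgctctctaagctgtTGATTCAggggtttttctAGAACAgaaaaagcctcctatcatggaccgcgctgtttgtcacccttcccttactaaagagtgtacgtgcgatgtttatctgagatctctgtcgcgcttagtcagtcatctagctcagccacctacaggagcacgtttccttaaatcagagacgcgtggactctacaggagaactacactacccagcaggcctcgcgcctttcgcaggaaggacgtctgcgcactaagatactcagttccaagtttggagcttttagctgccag
Slc24a4, chr12:102128477-102128776, plus strand: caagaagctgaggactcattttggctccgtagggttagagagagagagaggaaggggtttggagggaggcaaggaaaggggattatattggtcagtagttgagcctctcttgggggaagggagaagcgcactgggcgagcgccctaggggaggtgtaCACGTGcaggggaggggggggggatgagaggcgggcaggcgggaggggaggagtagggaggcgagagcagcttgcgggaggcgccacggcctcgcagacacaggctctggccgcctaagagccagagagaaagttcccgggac
Thsd4, chr9:60510986-60511285, minus strand: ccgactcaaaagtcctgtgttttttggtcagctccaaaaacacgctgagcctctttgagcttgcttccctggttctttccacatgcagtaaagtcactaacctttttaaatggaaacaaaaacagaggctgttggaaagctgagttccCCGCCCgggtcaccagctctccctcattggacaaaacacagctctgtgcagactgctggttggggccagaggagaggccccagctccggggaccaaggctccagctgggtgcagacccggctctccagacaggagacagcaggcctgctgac
Adamts3, chr5:89883285-89883584, minus strand: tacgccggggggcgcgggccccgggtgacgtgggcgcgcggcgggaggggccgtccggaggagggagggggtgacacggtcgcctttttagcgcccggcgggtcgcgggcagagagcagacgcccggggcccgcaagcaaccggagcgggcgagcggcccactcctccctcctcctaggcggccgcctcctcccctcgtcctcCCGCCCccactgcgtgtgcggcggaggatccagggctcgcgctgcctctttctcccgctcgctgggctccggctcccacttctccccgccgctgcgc
The Map2k6 window held 1 AP-1 site and 1 AGAACA site, the Slc24a4 window 1 E-box, and the Thsd4 and Adamts3 windows 1 GC box each (capitals CCGCCC, the other strand's letters). The second of 3 Map2k6 windows also held an AGAACA site, beside a GC box. Of the windows not printed, that of Ankrd52 held 5 GC boxes and that of Rsrp1 held 2, while the other window of Thsd4 and the third of Map2k6 held no match. None of the 9 windows held the full glucocorticoid response element or the cAMP response element. No motif was found in every one of the 6 genes, and a match of letters is a description only.

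Among the secreted proteins, Thsd4 (chromosome 9), which binds fibrillin microfibrils, had the largest difference of the 9 with the scaling used here, though not under normexp with 75th percentile scaling (0.58 for Thsd4 in resilient against naive mice). Its level was -1.30, -2.20 and -1.37 in the resilient mice. In the susceptible mice the lowest, median and highest levels were -2.24, -2.16 and -2.0. In the naive mice the levels were -3.86, -4.01, -3.64, -2.70 and -3.09. All 9 defeated mice lay above all naive mice, and resilient mouse 2 lay among the susceptible mice. The log2 difference was 1.84 ± 0.27 in resilient against naive mice (SE) and 1.32 ± 0.22 in susceptible against naive mice (adjusted p = 0.0175, limma). The spot was well above background in 3 of 3 resilient, 6 of 6 susceptible and 2 of 5 naive mice, and those 2 naive mice, on slide 3, had the highest naive levels. The susceptible-minus-naive difference was 1.70 within slide 1, 1.78 within slide 2 and 0.67 within slide 3. It was 0.25 (adjusted p = 0.313) when normexp background correction came before the 75th percentile scaling.

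Adamts3 (chromosome 5) encodes a protease that trims procollagen, takes part in activating the lymphatic growth factor VEGF-C, and cleaves reelin in mouse brain. It was the dimmest case: its spot was well above background in 3 of 3 resilient, 2 of 6 susceptible and 0 of 5 naive mice. The resilient levels were -3.23, -2.81 and -3.0. The susceptible levels ran between -4.57 and -3.58 with a median of -3.75. The naive levels of -4.10, -4.32, -4.83, -4.42 and -5.07 bound the gene only from above. The resilient mice lay above all other mice, and 4 of 6 susceptible mice lay above all naive mice. With the scaling used here, the resilient mean was 1.48-fold above the lowest signal that counted as above background on the naive arrays. That mean comes from the mice whose high values chose the gene, so 1.48 is no lower limit for the difference. Under normexp with 75th percentile scaling the log2 difference, resilient minus naive, was 0.26. No fold can be given for susceptible mice. The fitted log2 difference of 0.64 ± 0.21 (SE) in susceptible against naive mice did not pass the threshold (adjusted p = 0.0908, limma), passed it without susceptible mouse 6 (0.78, adjusted p = 0.0306), and was -0.064 under normexp with 75th percentile scaling.

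At cell junctions, Pkp2 (chromosome 16), a plakophilin that anchors intermediate filaments to desmosomes, differed about as much in susceptible as in resilient mice. The levels were 1.36, 0.51 and 0.67 in resilient mice. In susceptible mice they lay between 0.37 and 1.31 with a median of 0.80. In naive mice they were -0.53, -0.65, -0.20, -0.82 and -0.51. No naive mouse reached the level of any defeated mouse, while the resilient values lay within or just beside the susceptible range. The log2 difference from naive mice was 1.39 ± 0.24 in resilient mice and 1.36 ± 0.19 in susceptible mice (SE; adjusted p = 0.0148 in susceptible mice, limma). The difference in susceptible mice was 98.0% of that in resilient mice on the log2 scale, the highest share among the 9.

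Usp53 (chromosome 3), a member of the ubiquitin-specific protease family that localises to tight junctions and is needed for hearing in mice, differed less. The resilient levels were -2.34, -2.33 and -2.14. The susceptible levels ran between -2.90 and -2.39 with a median of -2.58. The naive levels were -2.94, -3.25, -3.17, -3.21 and -2.81. The resilient mice lay above all susceptible and all naive mice, and 5 of 6 susceptible mice lay above all naive mice. Its spot was well above background in every defeated mouse but in 2 of 5 naive mice. The rise in susceptible mice was 0.46 ± 0.11 (SE; adjusted p = 0.0431, limma). That call was kept without naive mouse 5 or susceptible mouse 6 and lost without any other single mouse (adjusted p up to 0.104), and the difference was -0.012 under normexp with 75th percentile scaling.

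Slc24a4 (chromosome 12), a sodium-calcium exchanger that also carries potassium and extrudes calcium from neurons, was well above background in all 14 mice. Its levels were 0.96, 0.65 and 0.78 in resilient mice. They lay between 0.38 and 0.86 with a median of 0.65 in susceptible mice. In naive mice they were -0.21, -0.32, -1.0, -0.27 and 0.01. The defeated mice lay apart from the naive mice, and the resilient values lay in or just above the upper part of the susceptible range. The log2 difference was 1.16 ± 0.19 in resilient and 0.99 ± 0.16 in susceptible mice (SE; adjusted p = 0.0175 in susceptible mice, limma). Naive mouse 3 was the lowest, and without it these differences were 1.00 and 0.83.

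Map2k6 (chromosome 11), the kinase that phosphorylates and activates p38 MAP kinases, had the tightest resilient values of the set. They were 0.71, 0.68 and 0.65. The susceptible levels lay between 0.39 and 0.79 with a median of 0.49. The naive levels were -0.03, -0.27, -0.59, -0.16 and 0.03. The naive mice lay below all 9 defeated mice. The log2 difference was 0.89 ± 0.14 in resilient and 0.76 ± 0.12 in susceptible mice (SE; adjusted p = 0.0175 in susceptible mice, limma). The rise in susceptible mice differed between slides, at 0.51, 1.20 and 0.47 within slides 1, 2 and 3.

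Slc24a4 and Map2k6 also varied alike within the groups. After group means were taken out, their Pearson r over 14 arrays was 0.80, the highest of 36 pairs, and naive mouse 3 was the lowest of the naive mice in each. Without naive mouse 3 the r was 0.60. The 36 pairs ranged from -0.36 (Pkp2 and Map2k6) to 0.80 with a median of 0.14, and 28 were above 0. Among the 6 susceptible mice alone the median over pairs was 0.39. These are descriptions, since the genes share arrays and were chosen together.

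**Figure D2:**
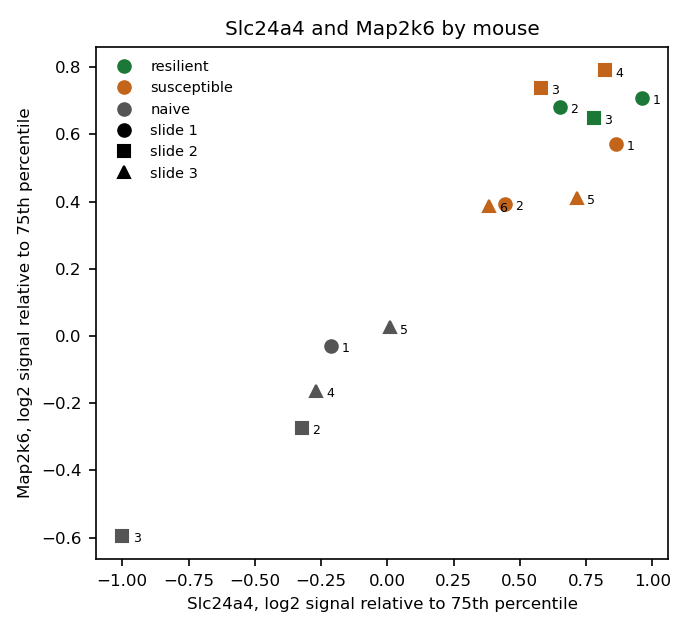
Map2k6 against Slc24a4 in the 14 mice, both as log2 signal relative to the array's 75th percentile, with colours for resilient, susceptible and naive mice, symbols for slides and numbers for mice. The 9 defeated mice lie at the upper right, the naive mice lie apart from them, and naive mouse 3 is lowest in both genes.

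Ankrd52 (chromosome 10), an ankyrin-repeat subunit of protein phosphatase 6 that in human cells acts on phosphorylated Argonaute, was well above background in all 14 mice. The resilient levels were -0.79, -0.79 and -1.33. The susceptible levels ran between -1.80 and -1.21 with a median of -1.49. The naive levels were -2.05, -1.90, -1.92, -2.06 and -1.74. Resilient mice 1 and 2 lay above all susceptible mice, resilient mouse 3 lay among them, and 5 of 6 susceptible mice lay above all naive mice. The choice of genes favours high resilient values. Ankrd52 was not called between resilient and susceptible mice, and that difference was -0.089 within slide 2. The log2 difference was 0.96 ± 0.16 in resilient mice and 0.46 ± 0.13 in susceptible mice (SE), and in susceptible mice it did not pass the threshold (adjusted p = 0.0652, limma). Without susceptible mouse 6 it did (0.53, adjusted p = 0.0339), and under normexp with 75th percentile scaling it was 0.14 (adjusted p = 0.550).

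Rsrp1 (chromosome 4), an arginine- and serine-rich nuclear protein whose function is little known, had levels of 3.28, 3.20 and 3.51 in resilient mice. The susceptible levels lay between 2.61 and 3.39 with a median of 3.14. The naive levels were 2.24, 2.44, 2.60, 2.41 and 2.43. The defeated mice lay above the naive mice, by the smallest margin for susceptible mouse 2. The log2 difference was 0.91 ± 0.15 in resilient and 0.69 ± 0.13 in susceptible mice (SE; adjusted p = 0.0265 in susceptible mice, limma). The call in susceptible mice was lost without naive mouse 2, or without susceptible mouse 1, 4 or 5 (adjusted p between 0.0503 and 0.0622, differences between 0.64 and 0.69).

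Spata2l (chromosome 8) encodes a relative of SPATA2, the protein that links the deubiquitinase CYLD to the linear ubiquitin ligase complex. Its own role is less known. Its levels were 2.26, 2.08 and 2.11 in resilient mice. They lay between 1.79 and 2.49 with a median of 1.98 in susceptible mice, and were 1.49, 1.09, 1.30, 1.29 and 1.51 in naive mice. The defeated mice lay above the naive mice, and susceptible mouse 4, not a resilient mouse, was the highest. The log2 difference was 0.81 ± 0.15 in resilient and 0.70 ± 0.12 in susceptible mice (SE; adjusted p = 0.0189 in susceptible mice, limma), and without susceptible mouse 1 the call in susceptible mice was lost (0.71, adjusted p = 0.0510).

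Set against the name of the set, most of these genes were raised in susceptible mice too. Of the 9 genes, 7 rose in susceptible against naive mice, where 1.64% of all genes tested were called higher and 0.962% lower. Adamts3 and Ankrd52 did not pass. All 9 differences were positive, with a median of 0.70, against 0.02 over all genes. For 6 of the 9 every susceptible mouse lay above every naive mouse, as for 2.49% of all genes, and all 9 had an unadjusted p under 0.05, as had 24.0% of all genes. The naive mice are those that took part in choosing the genes, so this comparison is not independent of the choice. Thsd4, Adamts3 and Usp53 passed the probe filter only through defeated groups where they were high, so the filter favours their rises here too. Under normexp with 75th percentile scaling their differences were 0.25, -0.064 and -0.012. With that scaling 5 of the 9 genes were called, and 136 of all genes.

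Between resilient and susceptible mice, none of the 9 genes and none of the 14451 genes tested was called (0%), with limma's adjusted p rounding to 1.00 for each of the 9. An unadjusted p under 0.05 was found for 3 of the 9 genes, against 108 genes or 0.747% of all. The resilient mice are those whose high values chose the genes, so a positive difference from susceptible mice is favoured by the choice. The log2 difference, resilient minus susceptible, was 0.50 for Ankrd52 (95% interval 0.18 to 0.83) and 0.35 for Usp53 (0.07 to 0.62). Adamts3 was tested at all only because its spot was well above background in every resilient mouse, so the filter as well as the choice favours high resilient values, and with 2 of 6 susceptible spots well above background its fitted difference of 0.89 is no measure of size. In Adamts3 and Usp53 every resilient mouse lay above every susceptible mouse, as for 0.318% of all genes, and for Adamts3 nothing is read from that. For Thsd4 it was 0.52 with an interval of -0.03 to 1.07. The other 5 differences lay between 0.03 (Pkp2, -0.46 to 0.51) and 0.21 (Rsrp1, -0.11 to 0.53), and their intervals hold 0 and reach up to between 0.42 and 0.56. The difference in susceptible mice was 47.9% of that in resilient mice for Ankrd52 and 57.0% for Usp53, against 71.6% to 98.0% for 6 others, and no share can be given for Adamts3. Naive spots of Thsd4 and Usp53 were in part not well above background, so their shares are less certain.

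**Figure D3:**
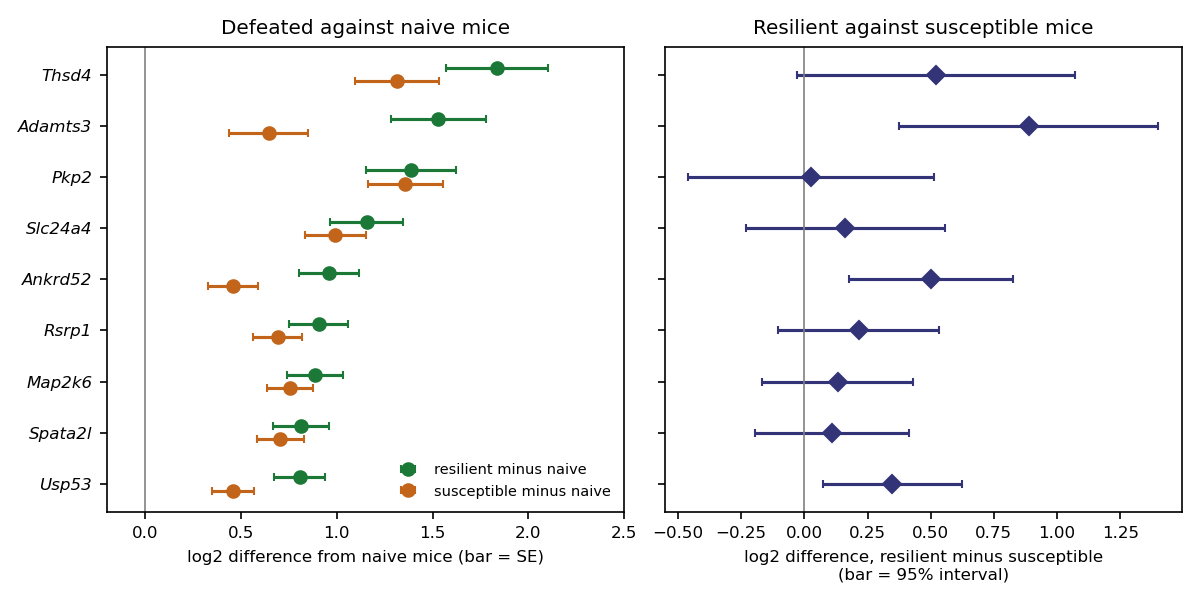
Log2 differences for the 9 genes. The left panel gives resilient minus naive and susceptible minus naive with SE bars; the right panel gives resilient minus susceptible with 95% intervals. In the right panel the intervals of Adamts3, Ankrd52 and Usp53 lie above 0, before adjustment over all genes, and those of the other 6 genes hold 0; most susceptible and all naive spots of Adamts3 were not well above background, so its points are not sizes.

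The calls in resilient mice rest on few arrays. Leaving out 1 mouse at a time, the number of the 9 genes called in resilient against naive mice was 0, 1 and 0 without resilient mice 1, 2 and 3. It was 0, 3, 0, 9, 0 and 9 without susceptible mice 1 to 6, which enter only through the shared estimate of the spread. It was 5, 0, 0, 1 and 6 without naive mice 1 to 5. The differences themselves stayed between 0.74 (Usp53) and 2.12 (Thsd4) in these 14 fits. In susceptible against naive mice the count lay between 4 (without susceptible mouse 1) and 9 (without susceptible mouse 6), and Thsd4, Pkp2, Slc24a4 and Map2k6 passed in all 14 fits.

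**Figure D4:**
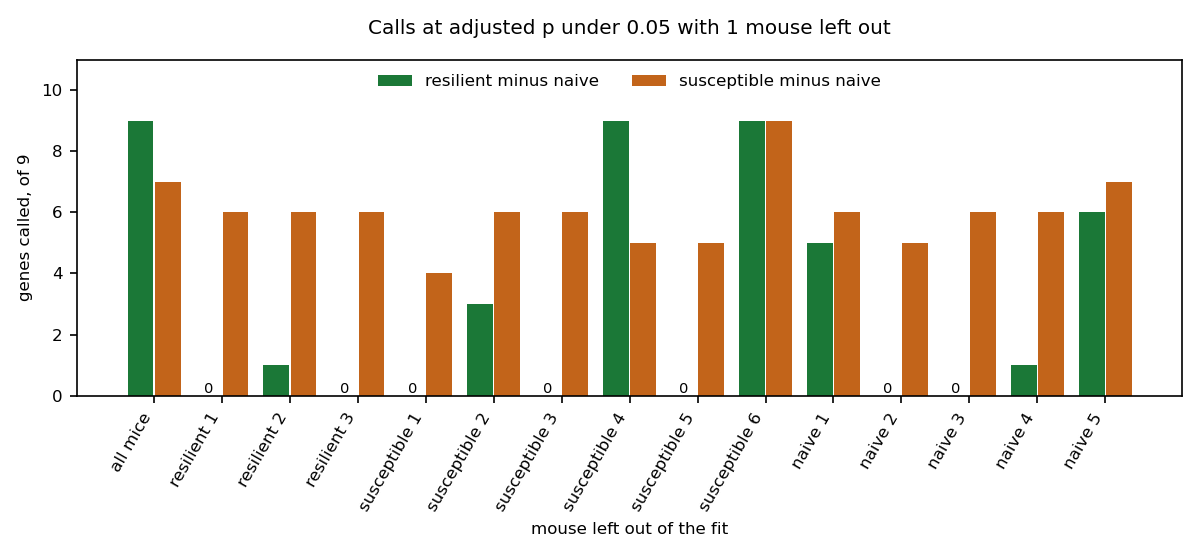
Number of the 9 genes called at an adjusted p under 0.05 (vertical axis) with all mice and with each mouse left out (horizontal axis), for resilient minus naive and susceptible minus naive. The count in resilient mice lies between 0 and 9, and that in susceptible mice between 4 and 9.

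Lists of genes from the pathways to which the 9 genes belong, and a list of glucocorticoid-induced genes, are set beside all genes tested. Of all genes, 1.64% were called higher in susceptible mice. The lists were chosen with earlier results of these data known, so their counts are a description and no test. Where a list holds any of the 9 genes, these stay in its counts and medians. The choice of genes favours their calls, so only the calls of other genes are read. Of 24 tested genes of the p38 cascade (25 listed), 2 rose in susceptible mice and 0 fell: Map2k6 and Map3k6, a kinase at the top of such cascades (0.92 ± 0.19, SE; adjusted p = 0.0327, limma). The list's median log2 difference was 0.04 in resilient and 0.08 in susceptible mice, against 0.02 over all genes in each. Map3k6 is also listed among the glucocorticoid-induced genes, and its difference in resilient mice was 1.02 ± 0.23 (adjusted p = 0.0774).

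Of the ADAMTS proteases and ADAMTS-like proteins, 13 of 26 were tested, and Thsd4 was the only 1 of these called in susceptible mice. The median difference was -0.04 in resilient and 0.04 in susceptible mice. Adamts1, a protease that cleaves proteoglycans of the matrix, had 0.53 ± 0.19 in susceptible mice (adjusted p = 0.118). Fibrillin microfibril and procollagen partners, with 13 of 17 tested, had 0 calls in either direction and medians of -0.41 in resilient and -0.37 in susceptible mice. The latent TGF-beta binding protein gene Ltbp1 had -0.66 ± 0.19 in susceptible mice (adjusted p = 0.0688). Of these 13 partner genes, 3 had a positive difference in each defeated group.

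Junction genes gave a like picture. Of the desmosome and plakophilin genes 8 of 13 were tested, and Pkp2 alone was called in susceptible mice, with a list median of -0.09 in resilient and -0.03 in susceptible mice. Ctnnd2, a neuronal catenin, had -0.30 ± 0.12 in susceptible mice (adjusted p = 0.142). Of the tight junction and USP53 partner genes 7 of 10 were tested, Usp53 alone was called, and it was the only positive difference of the 7. Their median was -0.20 in resilient and -0.22 in susceptible mice.

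Among sodium-calcium exchangers 7 of 9 were tested and Slc24a4 alone was called. The median was 0.24 in resilient and 0.14 in susceptible mice, and Slc8a2, a neuronal plasma membrane exchanger, had 0.28 ± 0.13 in susceptible mice (adjusted p = 0.195). Of the 7 protein phosphatase 6 genes, all tested, none was called in susceptible mice, and Ankrd28, a sister subunit of Ankrd52, had -0.41 ± 0.13 (adjusted p = 0.0927). Of the 10 linear ubiquitin and CYLD genes Spata2l alone was called, and Ikbkg, which encodes the NF-kappaB regulator NEMO, had 0.46 ± 0.12 (adjusted p = 0.0571).

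Splicing factors of the SR family and their kinases had 3 of 20 tested genes called higher in susceptible mice. These were Rsrp1, Srsf3 (0.62 ± 0.13, SE; adjusted p = 0.0312, limma) and Srsf10 (0.49 ± 0.10, adjusted p = 0.0312), which encode regulators of exon choice. The median was 0.19 in resilient and 0.17 in susceptible mice. Of the glucocorticoid-induced genes, 9 of 20 were called higher in susceptible mice, none of them among the 9 genes described here. They included Lcn2 (3.36 ± 0.42, adjusted p = 0.0148), Plin4, a lipid droplet protein (1.42 ± 0.26, adjusted p = 0.0252), Zbtb16, a transcription factor (0.94 ± 0.18, adjusted p = 0.0304) and Fkbp5, a chaperone that restrains the glucocorticoid receptor (1.37 ± 0.26, adjusted p = 0.0304). The median of this list was 0.61 in resilient and 0.63 in susceptible mice. In resilient mice 1 of its 20 genes, Lcn2, was called, where 0.0900% of all genes were called higher.

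The genes outside the set that varied most like the mean of the 9 after group means were taken out were Glg1 (r = 0.89 over 14 arrays), Tenm4 (r = 0.88) and Ptprt (r = 0.87). They were picked as the highest among all other genes tested, a search that favours high r values over few arrays. Whether they vary together beyond that was not tested. Glg1 encodes a Golgi membrane glycoprotein, Tenm4 a teneurin adhesion protein and Ptprt a receptor tyrosine phosphatase. Their log2 differences were smaller than those of the 9 genes, at 0.38, 0.45 and 0.36 in resilient mice and 0.17, 0.29 and 0.20 in susceptible mice.

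Several properties of the arrays and tissue also differed between the groups, not all in the order of the 9 genes. Each slide carried its naive arrays in row 1 and its stressed arrays in row 2, so position on the slide and stress cannot be told apart. Array brightness, the log2 75th percentile, was 8.03 ± 0.12 in resilient, 8.22 ± 0.61 in susceptible and 7.82 ± 0.71 in naive mice (SD, n = 3, 6 and 5). With group means taken out, its r with the 9 genes lay between -0.27 (Adamts3) and 0.48 (Thsd4). Slide 3 and scan day 2 held 2 susceptible and 2 naive mice and no resilient mouse. Within slides all 9 genes were higher in resilient than naive mice on slides 1 and 2 (medians 1.02 and 1.08). That was fixed in advance, since every resilient mouse lay above every naive mouse in each gene. All 9 were higher in susceptible than naive mice on slides 1, 2 and 3 (medians 0.56, 0.95 and 0.64). The medians over all genes were 0.07, -0.01 and 0.03. For the 6 genes in which every susceptible mouse lay above every naive mouse, this too was fixed in advance. The naive mice also took part in choosing the genes, so the slides are no independent repeats. Within slides, 8 and then 6 of the 9 were higher in resilient than susceptible mice on slides 1 and 2, with medians of 0.28 and 0.12. With slide as a block in the fit, 9 of the 9 genes were called in resilient and 8 in susceptible against naive mice. With scan day as a block the counts were 9 and 9. The counts in resilient mice come from the comparison that chose the genes and are a description only. These blocks raised the calls over all genes as well, to 511 and 2211 with slide and 1466 and 2500 with scan day, against 22 and 376 without a block.

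All 9 cortical excitatory neuron markers were tested, with mean levels of 1.33 to 1.43 in resilient, 1.1 to 1.60 in susceptible and 1.29 to 1.65 in naive mice. All 8 striatal neuron markers were tested too, at 0.40 to 0.84, 0.66 to 0.77 and 0.39 to 0.78 in the same order. Levels of different probes cannot be compared, so these values do not give the share of cortex in a punch. Levels of several other cell types' markers differed along with defeat. The 8 meningeal fibroblast markers, all tested, had mean levels of -0.30 to 1.88 in resilient, -0.35 to 1.70 in susceptible and 1.23 to 2.52 in naive mice, with 0 calls. Blood leukocyte markers (4 of 5 tested) lay at -1.04 to -0.20 in resilient, -1.03 to 1.03 in susceptible and -2.48 to -1.56 in naive mice, with S100a8 and S100a9 called higher in susceptible mice. Erythroid and globin genes (5 of 7 tested) had median differences of 0.87 in resilient and 1.59 in susceptible mice, with 0 calls. Astrocyte markers (9 of 9 tested) lay at 3.60 to 3.93, 3.73 to 4.22 and 4.01 to 4.32 in resilient, susceptible and naive mice, with S100b and Aldoc called lower in susceptible mice, and neuron markers (8 of 8) at 5.13 to 5.27, 4.90 to 5.34 and 4.83 to 5.02. Endothelial markers (6 of 7 tested) lay at 0.62 to 1.44 in resilient, 0.68 to 1.21 in susceptible and 1.09 to 1.69 in naive mice, with Slco1a4 called lower in susceptible mice. Pericyte or smooth muscle markers (4 of 6 tested) averaged 0.79 ± 0.67 in resilient, 0.62 ± 0.64 in susceptible and 1.35 ± 0.44 in naive mice (SD, n = 3, 6 and 5), with 0 calls. Inhibitory neuron markers (8 of 8 tested) averaged 2.90 ± 0.21, 2.86 ± 0.10 and 2.67 ± 0.07 in resilient, susceptible and naive mice, with 0 calls, and oligodendrocyte markers (8 of 8) 2.51 ± 0.52, 2.14 ± 0.24 and 2.58 ± 0.60, with 0 calls. Choroid plexus markers (3 of 5 tested) averaged -2.80 ± 0.35, -3.06 ± 0.29 and -2.60 ± 0.29 in resilient, susceptible and naive mice (SD), with 0 calls. Their median differences from naive mice were 0.13 in resilient and -0.006 in susceptible mice. Of these 3 markers, 2 were higher in resilient and 1 in susceptible than in naive mice. Oligodendrocyte precursor, microglia and striatal neuron markers had median differences between -0.19 and 0.22 in either defeated group, with Adora2a called lower in susceptible mice. The part of these differences in the values of the 9 genes was not tested.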

How the data were processed

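The authors deposited one scanner table per array. Per the file headers, Agilent Feature Extraction 11.0.1.1 wrote them, with linear spot intensities; the processed signal is that software's background-subtracted intensity. The deposited value table holds log2 values of the same signals with each array's 75th percentile at 0, as its columns show when set against the scanner values; it runs in the direction of log2 signal, holds no centring by gene, and its column medians lay between -3.09 and -2.74. It was used as an alternative only.

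From the 62976 spots per array, 3671 control spots and 104 to 184 outlier spots were left out, and no spot was saturated. Log2 processed signal minus the array's 75th percentile was averaged over spots of a probe. A probe was kept where it was well above background in every mouse of 1 or more groups (29823 of 55681), named by unversioned accession through RefSeq (GRCm38.p6; 27509 probes had a gene and 28172 had none), and the brightest probe stood for a gene, leaving 14451 genes. Between 48.0% and 65.4% of spots per array were well above background; the number of mice limits the precision. Groups and mouse numbers came from the labels, which do not say which mouse belonged to which of the study's experiments.

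1 limma fit (limma 3.58.1, R 4.3.3; lmFit, eBayes) used all 14 arrays, with Benjamini-Hochberg adjustment over all genes. It was tested on simulated data. The 9 genes and the gene lists were chosen with earlier results of these data known. Genes named beside the 9 were, per list, the gene with the smallest p in susceptible against naive mice and up to 4 called genes, the 3 most alike, and the neighbours in the order of calls; some genes that this rule names are not reported here. Alternatives covered normalization, background correction, filters, blocks, weights and left-out mice. Normexp used median spot and background signals.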

Additional observations from a re-analysis of the deposited data

Results flagged for a closer look

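Rsrp1 in susceptible mouse 2 stood far below the other susceptible mice, at a level of 2.61 against 3.11 for the next lowest. The gap made up 0.636 of the range of the 6 mice, above Dixon's critical value of 0.625. It was the only such case among 18 groups of values examined (the susceptible and the naive mice for each of the 9 genes), and chance flags about 1 in 20 groups. Without susceptible mouse 2 the Rsrp1 difference was 0.79 in susceptible against naive mice. The cause was not tested.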

How the results depend on the processing

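The differences between resilient and naive mice stayed positive for all 9 genes in every alternative run, but their sizes and calls varied with the setting. The sign was fixed in advance with 1 mouse left out, another filter, another prior or only the resilient and naive mice. In each gene every resilient mouse lay above every naive mouse. Under normexp before 75th percentile scaling the differences were 0.26 for Adamts3, 0.58 for Thsd4, 0.20 for Usp53 and 0.46 for Ankrd52, against 1.53, 1.84, 0.81 and 0.96. Their count was 0 of 9 without a filter on dim probes, with a filter of 3 arrays above background, with only the resilient and naive mice in the fit, and with normexp before 75th percentile scaling, where the count over all genes was 0 too (2941, 2996, 2550 and 2256 genes with an unadjusted p under 0.05). It was 8 with quantile normalization, normexp and quantile normalization, the deposited value table, and a trended robust prior. It was 9 with the mean of all probes, array weights, array brightness as a covariate, and the arrays of scan day 1. With 1 mouse left out the count lay between 0 and 9 (all genes 0 to 76), against 9 of 9 (22 genes) with all mice. These counts come from the comparison that chose the genes and are a description only. All genes called in resilient mice numbered 40 with quantile normalization, 187 with normexp and quantile normalization, 63 with a trended robust prior, 762 with array weights, 511 with slide and 1466 with scan day as a block, 1099 with array brightness as a covariate and 1629 on the arrays of scan day 1.

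In susceptible against naive mice the count of the 9 genes was 4 without a filter (all genes 35) and lay between 4 and 9 with 1 mouse left out (27 to 868), against 7 (376 genes). In the other alternatives the count lay between 5 and 9. It was 5 under normexp and 75th percentile scaling. All genes called there numbered 583 with quantile normalization, 828 with normexp and quantile normalization, 136 with normexp and 75th percentile scaling, 66 with only those groups in the fit, 2211 with slide and 2500 with scan day as a block, 1463 with array brightness and 1939 on scan day 1. Normexp with 75th percentile scaling turned Adamts3 (-0.064) and Usp53 (-0.012). With all arrays required above background only 6 of the 9 genes were tested. The normexp scaling, brightness and scan day 1 alternatives were chosen after seeing the data.

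In resilient against susceptible mice no alternative called any of the 9, and 0 to 1 genes in all were called with 1 mouse left out (1 without resilient mouse 1). Pkp2 turned to -0.047 with slide as a block and -0.13 within slide 1, and lay between -0.23 (without resilient mouse 1) and 0.20 (without resilient mouse 2) with 1 mouse left out. Within slide 2 Ankrd52 was -0.089, Map2k6 -0.11 and Spata2l -0.032. The cause of these turns was not tested.

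The labels do not say that mouse numbers pair the mice, and not every pair deviated together: deviations of 11 same-numbered pairs correlated between -0.38 and 0.71, with 8 over 0.1, against 18 of 52 other pairs. Same-numbered mice often shared a slide too, so these correlations cannot decide whether the mice are paired. The main fit treated the mice as sharing only a number. With the replicate block all 9 genes were called in resilient and in susceptible against naive mice (all genes 727 and 1710), and Pkp2 was -0.10 in resilient against susceptible mice. Dim signal limits Adamts3, Thsd4 and Usp53, whose naive spots were often not well above background, and 3 resilient mice limit all comparisons with them.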
